A study of Mus musculus with 4 samples.

Results

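The genes described here are those of the interferon response and of MHC class I processing, 37 gene symbols chosen by name, with every probe set that the platform annotation gives to one of them alone. Of these, 36 had such a probe set, 63 probe sets in all, out of 18193 named genes and 45037 probe sets on the array. Isg15, a ubiquitin-like protein, had only a probe set shared with another symbol and is given no value. The rule takes every probe set of the named genes, whatever its signal.

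RNA was taken from 2 cell types of the C57BL/6 strain, Kupffer cells, which are macrophages that live in the liver, and the colon carcinoma line SL4. The Kupffer cells were sorted as CD45+ CD11b+ F4/80+ cells from female mice aged 12 weeks that were wild type or Clec4n-/-, which lack Dectin-2, a receptor for fungal sugars. Each of the 4 groups had 100000 Kupffer cells and 100000 SL4 cells kept for 8 hours, either in 1 culture or apart, and each group had 1 array. The groups were wild-type separate culture, knockout separate culture, wild-type co-culture and knockout co-culture, and in the separate groups the RNA of both cell types was mixed before the array. Every array therefore holds RNA of both cell types, and fewer cells of a type and less RNA per cell cannot be told apart. How many mice gave cells is not stated in the labels, and SL4 cells carried no change of genotype in any group.

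Interferons are secreted cytokines that cells release when they sense nucleic acids or microbes. Type I interferon acts through the receptor chains Ifnar1 and Ifnar2, Janus kinases and STAT proteins, and the complex of Stat2, Irf9 and a partner STAT binds the interferon-stimulated response element (ISRE) in the promoters of antiviral genes. Interferon gamma acts through Ifngr1 and Ifngr2 and a different promoter element, the gamma-activated site (GAS). It raises the machinery that loads peptides on MHC class I, in which proteasome subunits cut proteins, the Tap1 and Tap2 transporter moves peptides into the endoplasmic reticulum, tapasin (Tapbp) holds the class I chain at the transporter, and B2m is the light chain. Promoters of class I genes are also known to be bound by NF-kappaB. Macrophages and tumour cells can both respond to interferon.

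Promoter sequences are shown because they set the members that carry the ISRE letters beside those that rose in co-culture. The 250 bases before the annotated start were read from RefSeq promoter windows of build GRCm38.p6, which held 31 of the 37 members in 40 windows. The ISRE core was searched as GAAANNGAAA on both strands, GAS as TTCNNNGAA on both strands, and the kappaB consensus by its usual degenerate form on both strands. Capitals mark the ISRE core, and in B2m and Ifitm3 also the kappaB consensus. Ifit1 (chr19:34640639-34640888, plus strand), Ifit3 (chr19:34583279-34583528, plus strand) and Rsad2 (chr12:26456453-26456702, minus strand) are antiviral genes with the ISRE core. B2m (chr2:122147437-122147686, plus strand) is a bright gene with both elements. Tapbp (chr17:33919228-33919477, plus strand) and Ifitm3 (chr7:141010745-141010994, minus strand) rose in co-culture. The Tap1 window (chr17:34187306-34187555, plus strand) is shared with Psmb9, which starts on the other strand, so that the 300-base windows of both genes overlap by 275 bases.
Ifit1: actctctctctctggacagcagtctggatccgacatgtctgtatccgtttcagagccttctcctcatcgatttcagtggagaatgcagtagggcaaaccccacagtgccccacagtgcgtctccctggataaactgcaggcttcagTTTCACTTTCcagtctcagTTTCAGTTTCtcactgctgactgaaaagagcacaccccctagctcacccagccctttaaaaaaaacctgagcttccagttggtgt
Ifit3: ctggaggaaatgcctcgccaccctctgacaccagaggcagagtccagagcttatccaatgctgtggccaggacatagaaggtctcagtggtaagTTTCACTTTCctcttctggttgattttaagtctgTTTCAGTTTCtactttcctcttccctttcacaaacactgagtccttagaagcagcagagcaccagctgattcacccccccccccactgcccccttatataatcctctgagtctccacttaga
Rsad2: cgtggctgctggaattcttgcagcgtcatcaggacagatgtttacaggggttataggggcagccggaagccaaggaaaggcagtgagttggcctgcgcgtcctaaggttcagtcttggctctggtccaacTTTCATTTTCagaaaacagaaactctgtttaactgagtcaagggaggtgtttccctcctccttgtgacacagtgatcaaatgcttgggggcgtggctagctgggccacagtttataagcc
B2m: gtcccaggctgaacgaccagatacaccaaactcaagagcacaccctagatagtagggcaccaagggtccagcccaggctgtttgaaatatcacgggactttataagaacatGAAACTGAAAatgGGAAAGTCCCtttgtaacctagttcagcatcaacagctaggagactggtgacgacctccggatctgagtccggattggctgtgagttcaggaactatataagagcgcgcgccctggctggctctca
Tapbp: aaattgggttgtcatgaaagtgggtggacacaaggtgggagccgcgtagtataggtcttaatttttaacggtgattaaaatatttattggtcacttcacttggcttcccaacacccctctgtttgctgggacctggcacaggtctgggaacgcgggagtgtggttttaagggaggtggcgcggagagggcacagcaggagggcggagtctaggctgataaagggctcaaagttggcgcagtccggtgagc
Ifitm3: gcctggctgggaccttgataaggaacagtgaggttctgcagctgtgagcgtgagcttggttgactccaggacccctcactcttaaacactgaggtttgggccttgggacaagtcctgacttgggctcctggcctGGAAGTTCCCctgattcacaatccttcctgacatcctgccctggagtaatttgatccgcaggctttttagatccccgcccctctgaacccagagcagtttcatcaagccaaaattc
Tap1: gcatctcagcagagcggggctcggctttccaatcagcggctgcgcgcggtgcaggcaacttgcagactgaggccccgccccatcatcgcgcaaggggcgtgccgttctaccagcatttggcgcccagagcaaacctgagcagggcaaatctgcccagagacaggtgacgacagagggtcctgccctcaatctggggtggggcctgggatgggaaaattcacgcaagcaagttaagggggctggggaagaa

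The ISRE core was present in 9 of the 31 members with a window, namely Ifit1, Ifit3, Rsad2, Gbp2, Gbp3, Stat2, Isg15, Bst2 and B2m. Counted by window, 9 of the 40 member windows held it, against 2.98% of all 32851 windows of this length. In Ifit1 it lay 104 to 95 and 85 to 76 bases before the start, in Ifit3 156 to 147 and 122 to 113, in Rsad2 120 to 111, and in B2m 139 to 130. GAS letters were found in 8 members, Irf1, Irf8, Ifit2, Isg20, Bst2, Eif2ak2, Samhd1 and Psmb8. They lay in 8 of the 40 member windows, against 7.02% of all windows. The kappaB consensus was found in 6 members, Irf1, Ifit2, Ifitm3, Isg20, Bst2 and B2m. It lay in 6 of the 40 member windows, against 7.25% of all windows. In Bst2 the GAS match overlaps a match to each of the other elements. The Tapbp and Tap1 windows held none of the 3, nor did that of Ifi35, which also rose in co-culture and is not printed. A match is a run of letters and was not tested for binding.

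Signals are MAS5 intensities on a linear scale, and a signal of 76.1, the median of all values, served as the floor below which a value counts only as a bound. Of the 36 genes, 16 had no probe set above the floor in any array. They were the transcription factors Stat2 and Irf7, the antiviral genes Ifit1, Ifit3, Mx1, Mx2, Oasl2 and Ifih1, the deconjugating enzyme Usp18 and Parp9, both guanylate-binding proteins Gbp2 and Gbp3, and Psmb8, Psmb9, Tap1 and Tap2 of class I processing. The other 20 genes, 55.6%, had a probe set above the floor in at least 1 array, against 58.5% of all named genes. In all 4 arrays 17 genes did so, 47.2% against 53.5% of all named genes. By probe set, 36 of 63 passed in at least 1 array and 29 in all 4, and only these 36 entered the fits.

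Ifit1, an RNA-binding antiviral protein, was among the genes with no probe set above the floor. Its signals were 1.61 in wild-type separate culture, 2.46 in knockout separate culture, 1.12 in wild-type co-culture and 1.39 in knockout co-culture. Ifit3, its partner protein, read 13.2 in wild-type separate culture, 15.3 in knockout separate culture, 4.82 in wild-type co-culture and 25.1 in knockout co-culture. Both lay far under the floor in separate culture and in co-culture, so no fold is given for either. Of the 11 members under the floor throughout that had a promoter window, 5 held the ISRE core (Ifit1, Ifit3, Gbp2, Gbp3 and Stat2), and of the 19 above it in at least 1 array 3 did (Rsad2, Bst2 and B2m). The kappaB consensus was found in 0 of those 11 and in 6 of those 19, and GAS in 1 and 7.

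**Figure D1:**
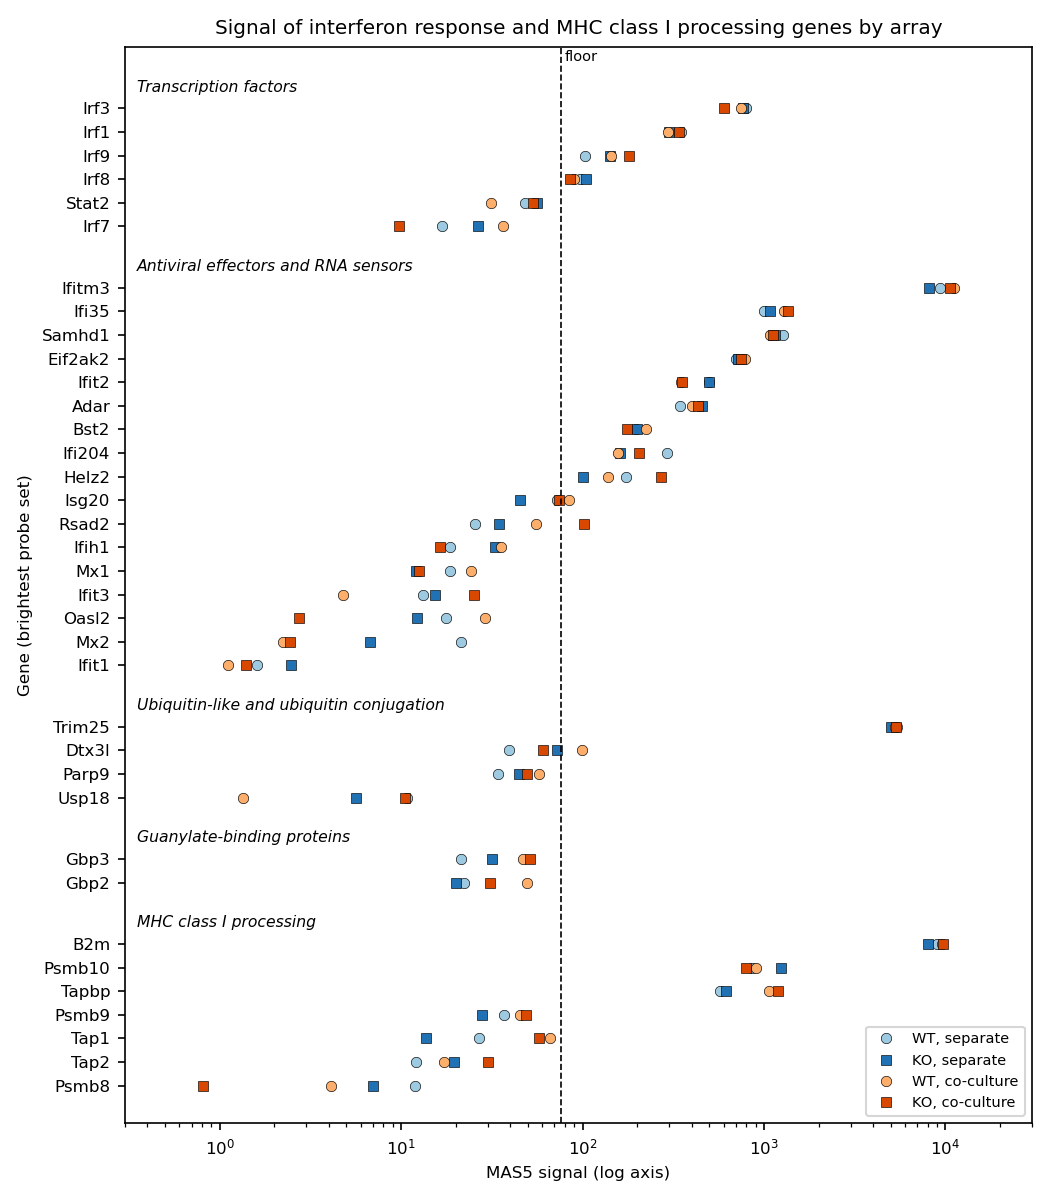
Signal of each member gene (its brightest probe set, by mean log2 signal) in each of the 4 arrays, on a log axis and grouped by role; the dashed line is the floor of 76.1 and each point is 1 array. B2m, Ifitm3 and Trim25 lie furthest to the right, while Ifit1 lies between 1.12 and 2.46 and Ifit3, Mx1, Mx2, Oasl2 and Ifih1 lie left of the line in all 4 arrays.

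The comparison of co-culture with separate culture was made once in each genotype, and limma, with culture and genotype as additive terms, gave the test over all 4 arrays, with 1 residual degree of freedom and the spread borrowed across 24189 probe sets. Adjusted p-values are Benjamini-Hochberg values over those 24189. Since no group has a second array, the test takes the difference between the genotypes' changes as noise. In this fit 4 of the 36 member probe sets rose in co-culture: both of Tapbp, 1 of Ifi35 and that of Ifitm3. The background was 2.44% of all fitted probe sets. None fell at an adjusted p under 0.05, against 3.03% of all, and at an unadjusted p under 0.05 the fit had 5 member probe sets higher and 2 lower, against 2138 higher and 2420 lower of all 24189. The median culture effect was 0.023 (log2) over the 36 and 0.0064 over all 24189. Without the trend of variance on signal none of the 4 calls passed, with adjusted p-values of 0.118 to 0.278, and with culture as the only term 1 did, that of the brighter Tapbp probe set.

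Tapbp, which encodes tapasin, had the largest fitted effect among the 36 member probe sets. Its brighter probe set read 569 in wild-type separate culture, 617 in knockout separate culture, 1059.7 in wild-type co-culture and 1191 in knockout co-culture. Both co-culture arrays lay far above both separate arrays, and the genotypes stood close together in each condition. Co-culture exceeded separate culture 1.86-fold without the deletion and 1.93-fold with it, and the fitted effect was 0.92 ± 0.10 (log2 ± SE, adjusted p = 2.15e-05), with a 95% interval of 0.71 to 1.13. The dimmer Tapbp probe set read 69.1 in wild-type separate culture, 106 in knockout separate culture, 174 in wild-type co-culture and 156 in knockout co-culture. Here, too, the groups did not overlap, and the wild-type separate value lay under the floor. The ratio was at least 2.28-fold for the wild-type arrays and 1.47-fold for the knockout arrays, and the fitted effect was 0.87 ± 0.21 (log2 ± SE, adjusted p = 0.0227). With a floor of 38.0 its adjusted p was 0.0943, with quantile normalization 0.0754, and with a floor of 152 the effect was 0.11.

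Class I processing had 7 genes, of which 3 lay above the floor with 5 probe sets, and the 2 that rose were both of Tapbp. Of all fitted probe sets 2.44% rose. B2m, the light chain, was bright in all arrays. Its brighter probe set read 9007 in wild-type separate culture, 7987 in knockout separate culture, 9545 in wild-type co-culture and 9686 in knockout co-culture. The co-culture arrays were both above the separate ones, by 0.18 ± 0.085 (log2 ± SE, adjusted p = 0.26). For its dimmer probe set the signals were 7605 and 7167 in wild-type and knockout separate culture and 8048 and 8058 in wild-type and knockout co-culture, an effect of 0.13 (adjusted p = 0.434). Neither change of B2m passed the test.

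Psmb10, one of the inducible catalytic subunits of the immunoproteasome, read 857 in wild-type separate culture, 1241 in knockout separate culture, 902 in wild-type co-culture and 798 in knockout co-culture. The knockout separate array stood above the other 3, and the wild-type ratio was near 1. The fitted effect was -0.28 ± 0.13 (log2 ± SE, adjusted p = 0.241), and the log2 ratios of 0.074 in wild type and -0.64 in knockout differed in sign. Psmb8 and Psmb9, the other inducible subunits, lay under the floor, Psmb8 at 2.22 to 5.03 and 0.807 to 11.9 in its probe sets and Psmb9 at 27.9 to 48.6.

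Tap1, one chain of the peptide transporter, had 4 probe sets, all under the floor. The brightest read 26.9 in wild-type separate culture, 13.7 in knockout separate culture, 66.6 in wild-type co-culture and 57.4 in knockout co-culture. Since all are under the floor, no order and no fold is given. The other Tap1 probe sets lay between 0.582 and 19.4. Tap2, the partner chain, read 12.1 to 30.1.

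**Figure D2:**
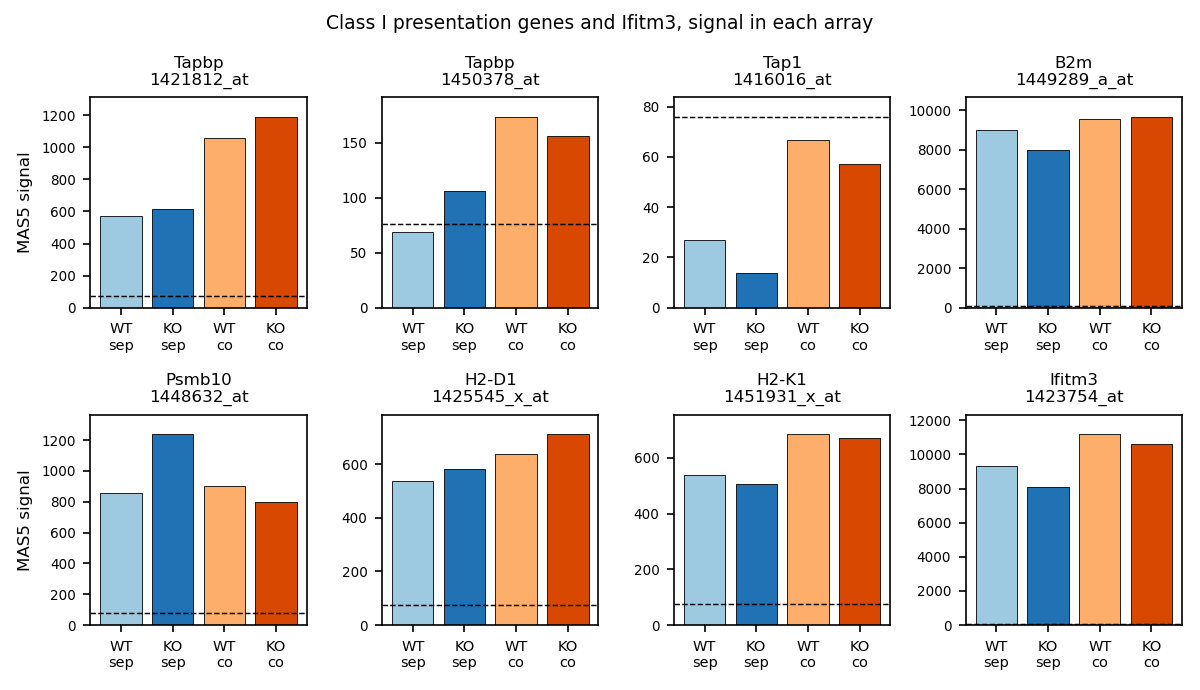
Signal of 8 probe sets in the 4 arrays (wild type and knockout, separate and co-culture), with linear axes from 0 and the floor of 76.1 as a dashed line; each bar is 1 array. The panels show Tapbp (both probe sets), Tap1, B2m, Psmb10, H2-D1, H2-K1 and Ifitm3. The bars of Tapbp, B2m and Ifitm3 are higher in both co-culture arrays than in both separate arrays, though the change of B2m did not pass the test. All bars of Tap1 end below the floor.

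A list of other class I genes gave 24 fitted probe sets of 13 genes, with a median effect of 0.029. The test called 0 of the 24 in either direction, against 2.44% higher and 3.03% lower of all fitted probe sets. Both co-culture arrays were above both separate arrays in 8 of the 24 and below in 2, against 22.9% and 22.7% of all. Among heavy chain genes of the class I molecule itself, 3 probe sets were chosen for mention after their values were seen. These 3 were higher in both co-culture arrays, while effects over all 24 fitted probe sets of the list ran from -0.36 to 0.67. The summed signal of the list was 53607 and 54578 in wild-type and knockout separate culture. In wild-type and knockout co-culture it was 53569 and 56875. H2-D1 read 202 and 231 in wild-type and knockout separate culture and 358 and 331 in wild-type and knockout co-culture in 1 probe set, an effect of 0.67 ± 0.20 (log2 ± SE, adjusted p = 0.069). Another of H2-D1 gave 476 and 443 in wild-type and knockout separate culture and 630.0 and 597 in wild-type and knockout co-culture, with an effect of 0.42 (adjusted p = 0.0874). H2-K1 read 539 and 507 in wild-type and knockout separate culture and 686 and 671 in wild-type and knockout co-culture, with an effect of 0.38 (adjusted p = 0.0935). None of these 3 probe sets passed the test. Class I heavy chain genes are near-identical copies, so signal of one may come from another.

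Calr, the chaperone calreticulin of the loading complex, had effects of 0.0027, 0.030 and -0.13, none past the test. The 49 fitted probe sets of 25 constitutive proteasome genes had a median effect of 0.094. Among them 0 passed in either direction, against 2.44% higher and 3.03% lower of all fitted probe sets.

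Of 17 antiviral effectors and RNA sensors 11 lay above the floor with 18 probe sets. Of these 2 rose in co-culture and 0 fell, against 2.44% and 3.03% of all fitted probe sets, with a median effect of 0.071. Ifitm3, a membrane protein that restricts virus entry, was the brightest antiviral member. It read 9319 in wild-type separate culture, 8105 in knockout separate culture, 11208 in wild-type co-culture and 10625 in knockout co-culture. Both co-culture values were above both separate values, while the log2 ratio of knockout over wild type was -0.20 in separate culture and -0.077 in co-culture. The ratio was 1.20-fold for the wild-type arrays and 1.31-fold for the knockout arrays, and the fitted effect was 0.33 ± 0.085 (log2 ± SE, adjusted p = 0.0314). Its promoter window holds the kappaB consensus 116 to 107 bases before the start, and no ISRE core.

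Ifi35, an interferon-induced leucine zipper protein, read 1000.3 in wild-type separate culture, 1086 in knockout separate culture, 1291 in wild-type co-culture and 1361 in knockout co-culture in its brightest probe set. All co-culture values were above all separate ones. The fitted effect was 0.35 ± 0.082 (log2 ± SE, adjusted p = 0.0197), from ratios of 1.29-fold and 1.25-fold, and with quantile normalization its adjusted p was 0.0615. Its other probe sets had effects of 0.27 (adjusted p = 0.569) and 0.30 (adjusted p = 0.458), in the same direction but short of the threshold.

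Ifit2, the one Ifit gene among the members above the floor, was lower in co-culture. It read 500.1 in wild-type separate culture, 499 in knockout separate culture, 350.4 in wild-type co-culture and 353 in knockout co-culture. The genotypes were nearly equal in each condition, and both co-culture values were below both separate values. The ratio was 1.43-fold lower in wild type and 1.42-fold lower in knockout, and the fitted effect was -0.51 ± 0.16 (log2 ± SE, adjusted p = 0.0775). It passed the test with log2(signal + 50) in place of the floor, at an adjusted p of 0.012, and among probe sets above the floor in all 4 arrays, at 0.0311.

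The RNA-sensing kinase Eif2ak2, known as PKR, had 3 probe sets, and the brightest read 700.3 in wild-type separate culture, 719 in knockout separate culture, 784 in wild-type co-culture and 747 in knockout co-culture. The fitted effect was 0.11 ± 0.11 (log2 ± SE, adjusted p = 0.658). Adar, which edits double-stranded RNA, had effects of 0.073 and -0.077 in its fitted probe sets. Samhd1, which degrades nucleotides, had an effect of -0.15 in its brightest probe set, with signals of 1074 to 1278. Bst2, tetherin, read 198 and 199 in wild-type and knockout separate culture and 224 and 175 in wild-type and knockout co-culture, and its log2 ratios of 0.18 in wild type and -0.18 in knockout had opposite signs. None of these passed the test.

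Rsad2, the antiviral enzyme viperin, had 3 probe sets, of which 1 passed the floor, and in a single array. That one read 25.7 in wild-type separate culture, 34.8 in knockout separate culture, 55.5 in wild-type co-culture and 103 in knockout co-culture. The knockout co-culture value was the highest, at least 1.35-fold over knockout separate culture, and the fitted effect was 0.22 ± 0.18 (log2 ± SE, adjusted p = 0.575). With a floor of 38.0 the effect was 0.99 with an adjusted p of 0.0435. The other Rsad2 probe sets lay between 4.64 and 15.4 in all arrays. Isg20, an exonuclease, passed the floor in wild-type co-culture only, at 83.7, with 45.2 to 83.7 over the 4 arrays.

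Of 6 transcription factors 4 lay above the floor, with 8 fitted probe sets and a median effect of -0.19. The test for culture called 0 of these 8, against 2.44% higher and 3.03% lower of all fitted probe sets. Irf9, the DNA-binding part of the type I complex, read 103 in wild-type separate culture, 142 in knockout separate culture, 144 in wild-type co-culture and 179.6 in knockout co-culture. Both co-culture values exceeded both separate values by a narrow margin, and the knockout value was the higher one in each condition. The fitted effect was 0.41 ± 0.21 (log2 ± SE, adjusted p = 0.297) for culture and 0.39 ± 0.21 (log2 ± SE, adjusted p = 0.601) for genotype. Irf1, a target of both interferon gamma and NF-kappaB, read 349.8 in wild-type separate culture, 299 in knockout separate culture, 297 in wild-type co-culture and 340.5 in knockout co-culture, and the groups overlapped. Its effect was -0.024 ± 0.19 (log2 ± SE, adjusted p = 0.969). Its window holds GAS 90 to 82 bases and the kappaB consensus 13 to 4 bases before the start.

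Irf3, the factor that first switches on the interferon beta gene, had 4 probe sets, all above the floor in all arrays. The brightest read 797 in wild-type separate culture, 771 in knockout separate culture, 746 in wild-type co-culture and 606 in knockout co-culture. The knockout co-culture value was the lowest in this and in each of the other Irf3 probe sets. Their culture effects were -0.22, -0.00044, -0.18 and -0.25, and none passed the test, the one nearest 0 turning positive with quantile normalization. Irf8, a factor of myeloid cells, read 96.8 and 104 in wild-type and knockout separate culture and 90.0 and 85.1 in wild-type and knockout co-culture in its probe set above the floor throughout, an effect of -0.20 ± 0.18 (log2 ± SE, adjusted p = 0.617). The Stat2 probe sets lay between 11.2 and 67.8, and Irf7, the amplifier of interferon production, between 9.75 and 36.6.

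The 4 ubiquitin-related members with a probe set gave 5 fitted probe sets, with a median effect of 0.029. Among these 0 passed the test, against 2.44% higher and 3.03% lower of all fitted probe sets. Trim25, the ligase that activates the RNA sensor RIG-I, had the brightest signals after B2m and Ifitm3. Its 3 probe sets lay at 5038 to 5388, 1699 to 1909 and 1244 to 1422, with effects between 0.011 and 0.037. Dtx3l, a ligase that works in a pair with Parp9, passed the floor in 1 array in each of its probe sets, at 99.8 in wild-type co-culture and at 77.8 in knockout co-culture. Parp9 read 34.2 to 57.7 and Usp18, which removes Isg15 from proteins, 1.34 to 10.8. The guanylate-binding proteins Gbp2 and Gbp3, classical targets of interferon gamma, read at most 49.6 and 51.5.

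**Figure D3:**
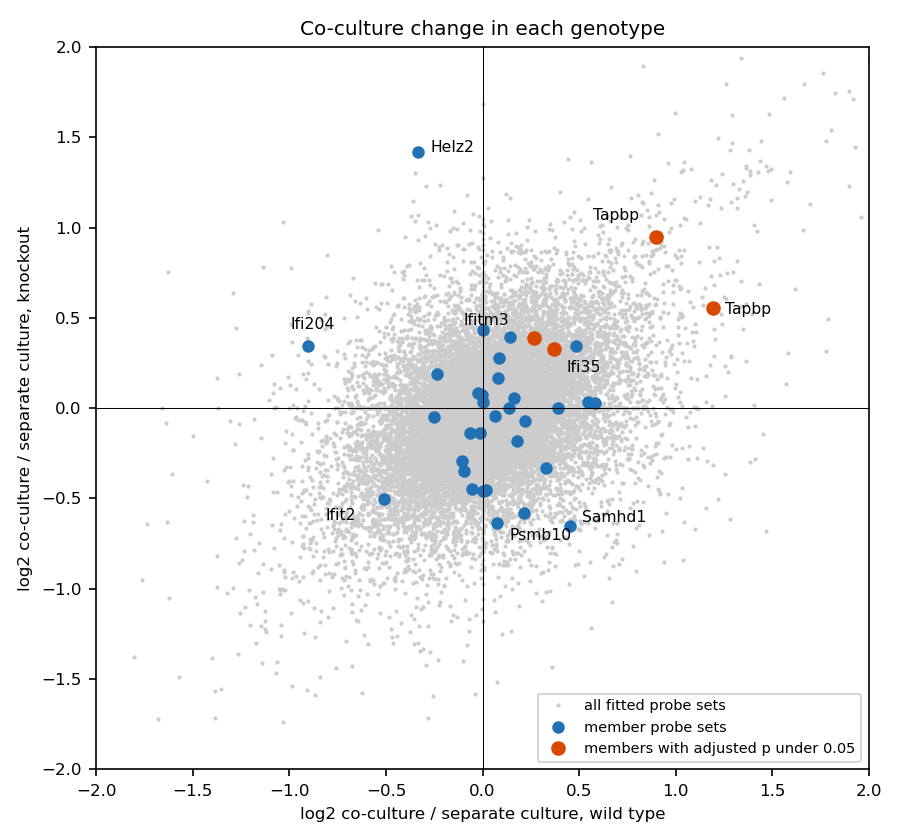
Log2 ratio of co-culture over separate culture in wild type (horizontal) and knockout (vertical) for the 36 fitted member probe sets (coloured) and all fitted probe sets (grey), with 26 grey points outside the axes. The 4 members with an adjusted p under 0.05 lie in the upper right, Ifit2 lies in the lower left, and Helz2 lies above the cloud on the left.

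Taken by pairs of arrays, few members moved by 1.5-fold. In wild type 2 of 36 member probe sets had a co-culture signal 1.5-fold or more above that of separate culture, both of Tapbp, against 4.42% of all, and 1 was lower, that of Ifi204, against 3.12%. In knockout 2 were higher, Helz2 and the brighter Tapbp, against 3.24%, and 2 were lower, Psmb10 and a Samhd1 probe set, against 4.09%. In both genotypes only the brighter Tapbp probe set was 1.5-fold higher, against 1.15% of all, and 0 were 1.5-fold lower, against 1.07%. Both co-culture arrays were above both separate arrays in 13 of 36 member probe sets, against 22.9% of all, and below in 6, against 22.7%. With signals raised to the floor first, an alternative chosen after seeing the data, these counts were 11, against 21.6% of all, and 6, against 21.9%.

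Some members went in opposite directions in the genotypes. Helz2, a helicase of the interferon response, read 174 in wild-type separate culture, 101 in knockout separate culture, 139 in wild-type co-culture and 269.8 in knockout co-culture. It was lowest in knockout separate culture and highest in knockout co-culture. The log2 ratio was -0.33 in wild type and 1.42 in knockout, 2.67-fold, and the fitted culture effect was 0.54 ± 0.30 (log2 ± SE, adjusted p = 0.366). Ifi204, a nuclear DNA-binding protein of the Ifi200 family, read 293 in wild-type separate culture, 162 in knockout separate culture, 157 in wild-type co-culture and 205 in knockout co-culture, with log2 ratios of -0.91 and 0.34. The wild-type separate array was the highest of the 4. The third is a dim probe set of Samhd1, at 61.6 and 119.5 in wild-type and knockout separate culture and 104 and 41.5 in wild-type and knockout co-culture, with log2 ratios of 0.45 and -0.65, while the brighter Samhd1 probe sets had ratios of -0.25 and -0.047, and 0.016 and -0.45. Opposite directions with a gap of at least 2-fold were found in 3 of 36 member probe sets, Helz2, Ifi204 and a Samhd1 probe set, and in 1.36% of all. With 1 array a group this gap has no test.

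The genotype comparison asked whether the members differ when Dectin-2 is missing from the Kupffer cells. No member probe set passed the limma test, against 0.145% of all fitted probe sets, or 35. At an unadjusted p under 0.05 there was 1 of 36, against 9.25% of all. This was a probe set of Eif2ak2 that read 471 in wild-type separate culture, 616 in knockout separate culture, 451 in wild-type co-culture and 559 in knockout co-culture, an effect of 0.35 ± 0.14 (log2 ± SE, adjusted p = 0.426). The knockout value was the higher one in each condition, while the brighter Eif2ak2 probe set had an effect of -0.016. In separate culture 1 member probe set was at least 1.5-fold higher in knockout, of Samhd1, against 2.36% of all, and 2 were lower, Helz2 and Ifi204, against 1.36%. In co-culture 1 was higher, Helz2, against 1.78%, and 0 were lower, against 2.2%. The median genotype effect over the 36 was 0.014. For the brighter Tapbp probe set the genotype effect was 0.14 ± 0.10 (log2 ± SE, adjusted p = 0.728), with an interval of -0.069 to 0.35.

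Upstream of the members, genes of the interferons themselves lay almost all under the floor. Of 18 listed, 10 had a probe set of their own and 1 lay above the floor, Ifna1 at 80.6 to 104. Ifnb1, interferon beta, read 1.31 to 1.66 and Ifng, interferon gamma, 0.888 to 2.20. Chains of the type I and gamma receptors lay above the floor, while Ifnlr1, of the lambda receptor, read 1.79 to 11.9. Ifnar1 read 483 to 538, Ifnar2 1301 to 1552, Ifngr1 168 to 246 and Ifngr2 717 to 881 in their brightest probe sets. Of 23 fitted probe sets of receptors, Janus kinases and STAT genes 0 passed the test for culture, and the median effect was 0.06. Other interferon regulatory factors had 0 of 11 fitted probe sets past the test, and 7 reference genes 0 of 20. The shares over all fitted probe sets were 2.44% higher and 3.03% lower. The effect of Ifngr2 was 0.27 ± 0.10 (log2 ± SE, adjusted p = 0.143) and that of a dimmer Ifnar1 probe set 0.56 ± 0.20 (log2 ± SE, adjusted p = 0.128).

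Among 11 negative regulators of cytokine signalling, 2 of 25 fitted probe sets rose and 0 fell, against 2.44% and 3.03% of all. Cish, an inhibitor of STAT signalling, read 91.4 and 60.2 in wild-type and knockout separate culture and 257 and 191 in wild-type and knockout co-culture, an effect of 1.41 ± 0.21 (log2 ± SE, adjusted p = 0.00043). Socs3, which blocks receptors of the interleukin 6 family, read 74.3 and 89.8 in wild-type and knockout separate culture and 171 and 167 in wild-type and knockout co-culture in its brighter probe set, an effect of 1.03 ± 0.20 (log2 ± SE, adjusted p = 0.0045). In both genes the co-culture values were above all separate values. The knockout separate value of Cish and the wild-type separate value of Socs3 lay under the floor, so both effects depend on where it is set.

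The list of nucleic acid sensors and their adaptors also held Tlr4, which does not sense nucleic acids. Of the 16 fitted probe sets of this list 1 was lower in co-culture and 0 were higher, against 3.03% and 2.44% of all. The lower one was the brightest of Tlr4, the endotoxin receptor, at 1001 and 892 in wild-type and knockout separate culture and 689.6 and 754 in wild-type and knockout co-culture, an effect of -0.39 ± 0.11 (log2 ± SE, adjusted p = 0.0407). Ikbke, a kinase that activates Irf3, read 6.00 and 9.71 in wild-type and knockout separate culture and 87.3 and 74.9 in wild-type and knockout co-culture, and with only 1 array above the floor its ratio in wild type was at least 1.15-fold. Ikbke was chosen for mention after its values were seen.

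Of the other interferon-stimulated genes listed, 27 of 60 on the array lay above the floor in at least 1 array. Of their 45 fitted probe sets 1 rose and 1 fell, against 2.44% and 3.03% of all, and the median effect was 0.062. Rnf213, a large ubiquitin ligase, read 382 in wild-type separate culture, 387 in knockout separate culture, 746 in wild-type co-culture and 759.8 in knockout co-culture. It was close to the same in both genotypes and rose 1.95-fold and 1.96-fold in co-culture, an effect of 0.97 ± 0.13 (log2 ± SE, adjusted p = 0.000235). Epsti1 read 235 and 249.9 in wild-type and knockout separate culture and 128 and 142 in wild-type and knockout co-culture, and fell by 0.85 on the log2 scale (SE 0.22, adjusted p = 0.029). Of other guanylate-binding proteins and IRG GTPases, 2 of 8 genes passed the floor and neither of their probe sets passed the test. Of 14 interferon-inducible chemokines and ligands, 4 passed the floor and 1 of 6 probe sets rose, that of Cxcl16, at 95.3 and 118 in wild-type and knockout separate culture and 255 and 233 in wild-type and knockout co-culture, an effect of 1.20 ± 0.22 (log2 ± SE, adjusted p = 0.00307).

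**Figure D4:**
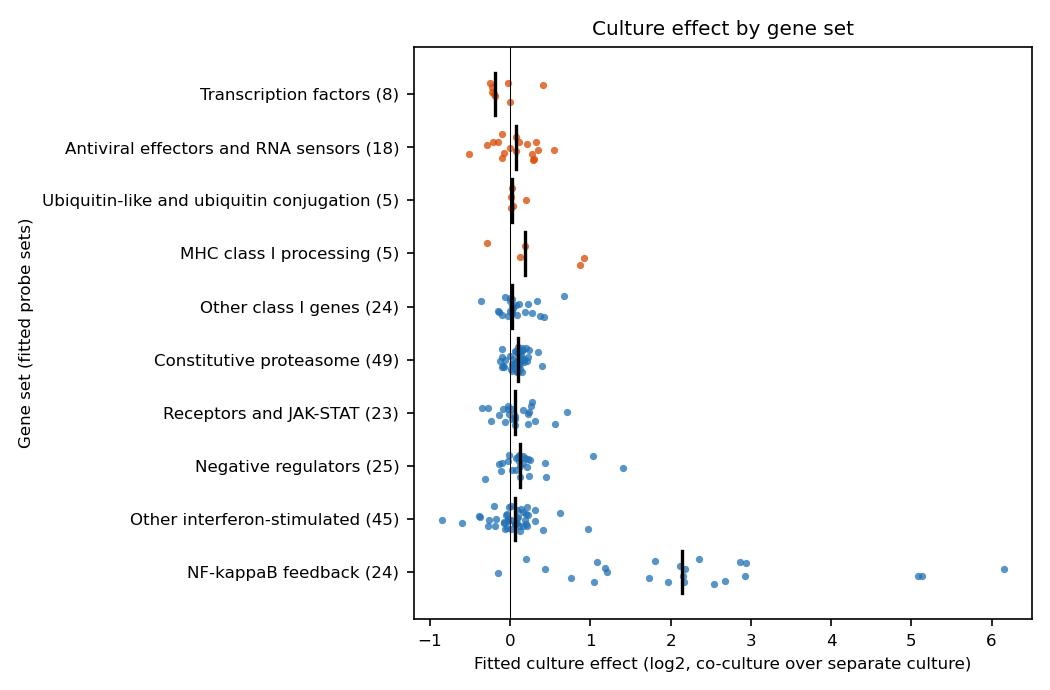
Fitted culture effect (log2, co-culture over separate culture) of each fitted probe set in the member groups (orange) and the listed gene sets (blue), with the number of probe sets in parentheses and black bars at the medians; vertical scatter within a set carries no value. The member groups lie between -0.51 and 0.92, where the upper end is Tapbp, while the NF-kappaB feedback genes have a median of 2.14.

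The same arrays held a large change in other genes. A list of NF-kappaB feedback genes was taken up because earlier results of these data showed them high. Of its 24 fitted probe sets 21 rose and 0 fell, against 2.44% and 3.03% of all, with a median effect of 2.14. This list is no independent evidence of its direction.

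Markers of the cell types were read in the same arrays. Their counts of calls stand beside 2.44% higher and 3.03% lower in co-culture of all fitted probe sets. Macrophage genes were mostly dim: 10 of 24 lay above the floor in at least 1 array, and 1 of 11 fitted probe sets rose, of C1qb, by 0.96 (adjusted p = 0.0264). In both genotypes 0 of the 11 were 1.5-fold higher, C1qb included, against 1.15% of all. The defining Kupffer cell genes Clec4f at 35.4 to 58.0, Vsig4 at 28.2 to 66.5 and Adgre1, which encodes F4/80, at 16.8 to 35.8 lay under the floor in all arrays. The summed signal of the macrophage probe sets was 2540.0 and 2996 in separate culture and 3183 and 2973 in co-culture, wild type first. Epithelial markers were dim too, with 3 of 14 genes above the floor. Mesenchymal markers were bright, with 1 of 18 fitted probe sets higher (Zeb1) and 3 lower in co-culture (Col3a1, Pdgfrb and S100a4), and a summed signal of 70692 and 62747 in separate culture and 63514 and 60288 in co-culture. Neutrophil, B cell and sinusoidal endothelial markers had no probe set above the floor, and T and NK cell markers had 1, of Prf1. Plasmacytoid dendritic cell markers, which include Bst2 and Irf8, had 5 of 8 genes above the floor, with Siglech at 6.58 to 33.0, and 2 of 11 fitted probe sets lower in co-culture, both of Tcf4. Of hepatocyte markers 5 of 9 lay above it, and 1 of 11 fitted probe sets fell, of Apoa1. For genotype, 1 of the 11 hepatocyte probe sets was called lower in knockout, against 0.145% of all called in either direction. SL4 cells are labelled colon carcinoma, yet the epithelial genes that define such cells lay mostly under the floor. The part of cell composition in the members' changes was not tested.

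Clec4n, the gene deleted in the knockout, lay under the floor in all 4 arrays, at 14.2 and 17.6 on the wild-type arrays and 8.29 and 8.19 on the knockout arrays for its brighter probe set and at 4.21 and 7.35 against 0.629 and 3.49 for the other. Whether these probe sets lie in the deleted part is not given in the sources used here, so they do not check the labels. Median signals of the arrays were between 72.5 and 78.4, and between 22225 and 22703 probe sets per array lay above the floor.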

How the data were processed

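RNA of Kupffer cells and SL4 cells was measured on 4 arrays, 1 in each of 4 groups. The deposited linear intensities, 1 per probe set and array, were made with Affymetrix Expression Console 1.4 and MAS5, per the submitters' processing notes. MAS5 scales each array to a common mean, so a change in total RNA per cell cannot be seen. Amplified cDNA from 20 ng of RNA was hybridised, per the labels' protocols.

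The platform annotation gave 34945 of 45037 probe sets 1 symbol, 932 several and 9160 none listed. Of the first, 34741 matched RefSeq's GRCm38.p6 genes by Entrez number, which changed 0 symbols.

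Signals were raised to a floor of 76.1 and log2-transformed. A ratio with 1 side at the floor is written as a lower bound, and none is given where both sides were there. The 24189 probe sets above the floor in at least 1 array were fitted in limma 3.58.1 (R 4.3.3) with culture and genotype as terms, eBayes with trend (1 residual and 15.2 prior degrees of freedom) and Benjamini-Hochberg adjustment at 0.05. Where some values lie under the floor, a fitted effect depends on where the floor is set, in size and sometimes in sign. The fit was tested on simulated data. Precision is limited by the number of arrays, and nothing shows how far replicate cultures would differ.

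The members and lists were chosen with earlier results of these data known. Members above the floor are named with all arrays where called, 1.5-fold apart the same way in both genotypes or both cultures, or the brightest probe set of a transcription factor or class I gene. Listed genes are named where called for culture, 1.5-fold apart in both genotypes (1 Tlr4 probe set excepted), or an interferon or its receptor. Others are said to be named after their values were seen or serve as examples. Alternatives were other floors, an offset, a stricter filter, quantile normalization, 1 probe set per gene, eBayes without trend and each factor alone. Promoter windows were searched in Python 3.11.15.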

Additional observations from a re-analysis of the deposited data

Results flagged for a closer look

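In 3 member probe sets the change with co-culture had opposite signs in knockout and wild type, with a gap of at least 2-fold. That difference was not tested, since each group had 1 array. For Helz2 the log2 change with co-culture in knockout exceeded that in wild type by 1.75. For Ifi204 the gap was 1.25 in the same direction. For a dim probe set of Samhd1 it was -1.10, with 2 of its 4 values under the floor. Of all fitted probe sets 330 showed such a pattern.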

How the results depend on the processing

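Under the alternatives, 241 of 257 culture values of single member probe sets kept their direction and their side of the threshold, 11 lost the call, 3 gained one and 2 changed sign. Of 257 genotype values 244 kept both and 13 changed sign, none of them called. The culture effect of an Irf3 probe set turned to 0.00023 with log2(signal + 50) and 0.030 with quantile normalization. With quantile normalization the genotype effect turned to -0.012 for Irf8, -0.0063 for Ifit2, -0.0081 for Eif2ak2 and 0.029 and 0.024 for the B2m probe sets. With a floor of 152 it turned to -0.060 for Eif2ak2 and -0.078 for the dimmer Tapbp probe set. With a floor of 38.0 it turned to -0.18 for Samhd1 and 0.083 and -0.067 for the Dtx3l probe sets, and with log2(signal + 50) to -0.074, 0.0098 and -0.025. Without trend, the calls for culture were 14 higher and 0 lower over all probe sets (main 590 and 732) and 0 higher among members (main 4). With culture alone they were 117 and 91, and 1 among members. With quantile normalization they were 349 and 375, and 2 among members. With log2(signal + 50) they were 919 and 1184, with 1 member lower, and with 1 probe set per gene, and so fewer tested, 271 and 407. Among probe sets above the floor in all 4 arrays 1 member was lower. For genotype, 16 probe sets were higher and 19 lower in the main fit. These counts were 44 and 41 with a floor of 152, 144 and 150 with the offset, 108 and 92 above the floor in all arrays, 1 and 0 with quantile normalization, 3 and 0 with 1 probe set per gene, and 0 and 0 without trend and with genotype alone. With a floor of 38.0, 9 were lower. Members at least 1.5-fold apart numbered, with that lower floor, 7 higher in wild-type co-culture (main 2), 6 higher in knockout co-culture (main 2), 4 higher in knockout separate culture against wild type (main 1), and 3 higher and 3 lower in knockout co-culture against wild type (main 1 and 0). With a floor of 152 they were 1 higher in wild type, 1 lower in knockout, and 0 higher and 1 lower between the genotypes in separate culture. With 1 probe set per gene they were 1 higher in wild type, 1 lower in knockout and 0 higher in knockout separate culture. With the offset, 1 was lower in knockout in each condition. The brighter Tapbp probe set lost its call without trend only (adjusted p = 0.118). Ifitm3 lost it without trend (0.278) and with culture alone (0.224), as did Ifi35 (0.252 and 0.141). Apart from the changes of construction named, the cause was not tested. The labels give no replicate numbers. The main fit already compares culture conditions within a genotype, and the fit with culture alone leaves that term out. Leaving out an array leaves no residual degrees of freedom. Signals under the floor carry no order, which limits what can be said of 16 of the 36 genes.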
